A study of Mus musculus with 16 samples.

Results

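The genes described here belong to the integrated stress response and to the serine, one-carbon and amino acid supply that it controls. They were 36 listed mouse genes, many of them known targets of the transcription factor ATF4, and were found as every probe set whose single gene symbol in the platform annotation was one of the 36. This gave 78 probe sets for 35 genes, out of 34843 probe sets with 1 symbol for 18168 genes. Pycr1, which encodes an enzyme of proline synthesis, had no such probe set and was not analysed here. Probe sets of 1 gene were averaged.

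The study compared mice that overexpress mutant Twinkle, called mutants below, with wild-type mice. Twinkle unwinds mitochondrial DNA when it is copied, and the mice model progressive external ophthalmoplegia, in which mitochondrial DNA accumulates deletions. RNA of cerebellum and of hippocampus was labelled from 5 ug of total RNA and hybridised to 16 Affymetrix arrays, 4 for each genotype and region. In order of replicate number, mutants were 24, 24, 21 and 21 months old and wild types 26, 24, 21 and 23 months, in both regions, so the genotypes were not matched for age. The sources used here give neither the promoter of the transgene, nor the number of founder lines, nor the strain, and the labels do not say whether both regions of a replicate number came from the same animal.

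The integrated stress response starts when kinases phosphorylate the initiation factor eIF2, which slows translation of most messages and favours that of Atf4. ATF4 then binds DNA together with C/EBP proteins and switches on genes that import amino acids, make serine and asparagine and feed one-carbon units into the folate cycle. Mitochondria use those units for formate, nucleotide and methionine metabolism, and in muscle of mice with mutant Twinkle this programme is known to be induced by respiratory chain deficiency.

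Every deposited value was a log value, taken here as log2, set against the median array of the same region. A value of 0 is therefore the median of the 8 arrays of that region, differences between genotypes are kept, and levels and differences between regions are lost. The tissue labels could for this reason not be checked against the level of marker genes. A difference below is always mutant minus wild type in log2 units, with its standard error (SE), and the test is limma's moderated test over all 18168 genes with Benjamini-Hochberg adjustment and a threshold of 0.05. In comparisons within a region, the SE, interval and p-value draw on a spread shared by the arrays of both regions. They are therefore not those of the named region alone. In bulk tissue, fewer cells of a type and less RNA per cell cannot be told apart.

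A sequence found in part of this group is the composite element that ATF4 and C/EBP proteins share, with the core TGATGNAA, or TTNCATCA on the opposite strand. It was looked for on both strands in RefSeq promoter windows of mouse build GRCm38.p6, from 250 bases before to 50 bases after the annotated gene start. Of the 36 listed genes, 30 had a window, and the 6 others were Eif4ebp1, Aldh1l2, Cth, Slc7a5, Slc7a3 and Slc1a5. The core was present in 10 of the 30 windows (33.3%), against 1219 of 27025 windows of all genes (4.51%). Since the genes were listed partly as ATF4 targets, that share follows from how they were chosen. Along the windows, the matches ranged from 200 bases before the start, in Vldlr, to 14 bases after it, in Trib3. The 7 windows below show the element in regulators, an asparagine enzyme, a cystine transporter, a mitochondrial enzyme and a lipoprotein receptor, with the core in capitals, each printed along the gene's own strand.
Atf3: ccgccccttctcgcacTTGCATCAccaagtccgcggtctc
Chac1: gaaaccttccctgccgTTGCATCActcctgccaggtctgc
Trib3: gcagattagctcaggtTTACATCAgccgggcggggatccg
Asns: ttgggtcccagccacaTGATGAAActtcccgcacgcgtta
Slc7a11: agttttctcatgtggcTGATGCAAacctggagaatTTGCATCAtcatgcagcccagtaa
Pck2: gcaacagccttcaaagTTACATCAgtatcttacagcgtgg
Vldlr: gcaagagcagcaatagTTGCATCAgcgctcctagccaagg
These lie at chr1:191183420-191183459 (minus strand) for Atf3, chr2:119351033-119351072 (plus) for Chac1, chr2:152344023-152344062 (minus) for Trib3 and chr6:7693209-7693248 (minus) for Asns. The others lie at chr3:50443637-50443695 (minus) for Slc7a11, chr14:55540147-55540186 (plus) for Pck2 and chr19:27216804-27216843 (plus) for Vldlr. Slc7a11 held the core in both orientations. Nupr1, Slc1a4 and Pycr1 had the core as well.

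Twnk, the gene of the overexpressed protein, was measured by 1 probe set and differed by 0.06 in each region (SE 0.05 in each, limma adjusted p = 0.77 in the hippocampus and 0.91 in the cerebellum). Its position with respect to the transgene could not be read from these sources, and the value is therefore no check of the labels. Several arrays stood apart. Wild-type hippocampus replicate 1 averaged 2.21 over 12 measured markers of cerebellar granule neurons and 1.28 over 10 markers of Purkinje cells, against at most 0.68 and 0.35 on the mutant arrays and -0.08 and -0.01 on the other wild-type arrays. Mutant hippocampus replicate 1 averaged 1.17 over 15 meningeal markers, and mutant hippocampus replicate 4 averaged 1.92 over 14 choroid plexus markers. In the cerebellum, mutant replicates 2 and 4 had mean poly-A spike-in values of 0.47 and 0.49, where no wild-type array exceeded 0.04. Hybridization spike-ins lay lowest on wild-type cerebellum replicate 4, at -0.80. Choroid plexus markers averaged -1.29 on mutant cerebellum replicate 4, against 0.60 on wild-type cerebellum replicate 1. Some lists separated the genotypes: the 5 measured blood cell markers averaged -0.09 to -0.06 in mutant cerebellum against 0.02 to 0.28 in wild-type cerebellum, and -0.24 to -0.04 in mutant hippocampus against 0.04 to 0.55 in wild-type hippocampus. Member counts and several gene values are also given without the hippocampus arrays named here and without mutant cerebellum replicates 2 and 4.

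In the mutant cerebellum the stress and one-carbon genes differed little from wild type. Of the 35 measured genes, 22 lay above 0 and 13 below, with a median difference of 0.02, where 53.6% of all genes lay above 0 and their median was 0.01. Differences of 34 of the 35 were within 0.2 log2 units, the exception being the stress-inducible chromatin protein gene Nupr1, at 0.29 (SE 0.28). Nupr1 stood at 0.68 on mutant replicate 2, and its difference was 0.13 without that array and 0.09 without mutant replicates 2 and 4. These were its highest mutant arrays, so leaving them out had to lower the difference. limma called 0 of the 35, as it called 0 of all genes (0%). At an unadjusted p under 0.05 there were 0 members higher and 0 lower, against 3.15% of all genes higher and 2.24% lower. Members whose mutant arrays all lay above or all below the wild-type arrays numbered 0 as well, against 1.44% and 1.02% of all genes. The smallest adjusted p of a member was 0.884. Without mutant replicate 3 the count at an unadjusted p under 0.05 was 3 (Psph, Aldh18a1 and Slc6a9), without mutant replicate 1 it was 2, and without wild-type replicate 2 or 4 it was 1. Without mutant replicates 2 and 4 it was 0, the median was 0.0018 and 18 members lay above 0. The shares of all genes in these fits are not given here, so the counts cannot be read as particular to the members.

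The mutant hippocampus showed the same near-0 centre with a few genes farther out. There 20 of the 35 genes lay above 0 and 15 below, with a median difference of 0.03, where 58.9% of all genes lay above 0 and their median was 0.02. limma called 0 members, as it called 0 of all genes (0%). At an unadjusted p under 0.05 there were 3 members higher, the transporter gene Slc7a3 and the enzyme genes Cth and Pck2, against 5.28% of all genes. Only the transcription factor gene Cebpb was lower at that p, against 2.75% of all genes. Slc7a3 was the 1 member whose mutant arrays all lay above the wild-type arrays, against 3.24% of all genes, and 0 lay all below, against 1.52%. The smallest adjusted p of a member was 0.258. The 4 members at that p became 2 when mutant replicate 4 was left out and 6 when wild-type replicate 4 was, and there were 3 without the 3 named hippocampus arrays. Without wild-type replicate 1 alone it was 3, and the genes were Slc7a3, Aldh1l2 and Eif4ebp1. For fits with arrays left out the shares of all genes are not given here, so these shifts cannot be read as particular to the members.

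**Figure D1:**
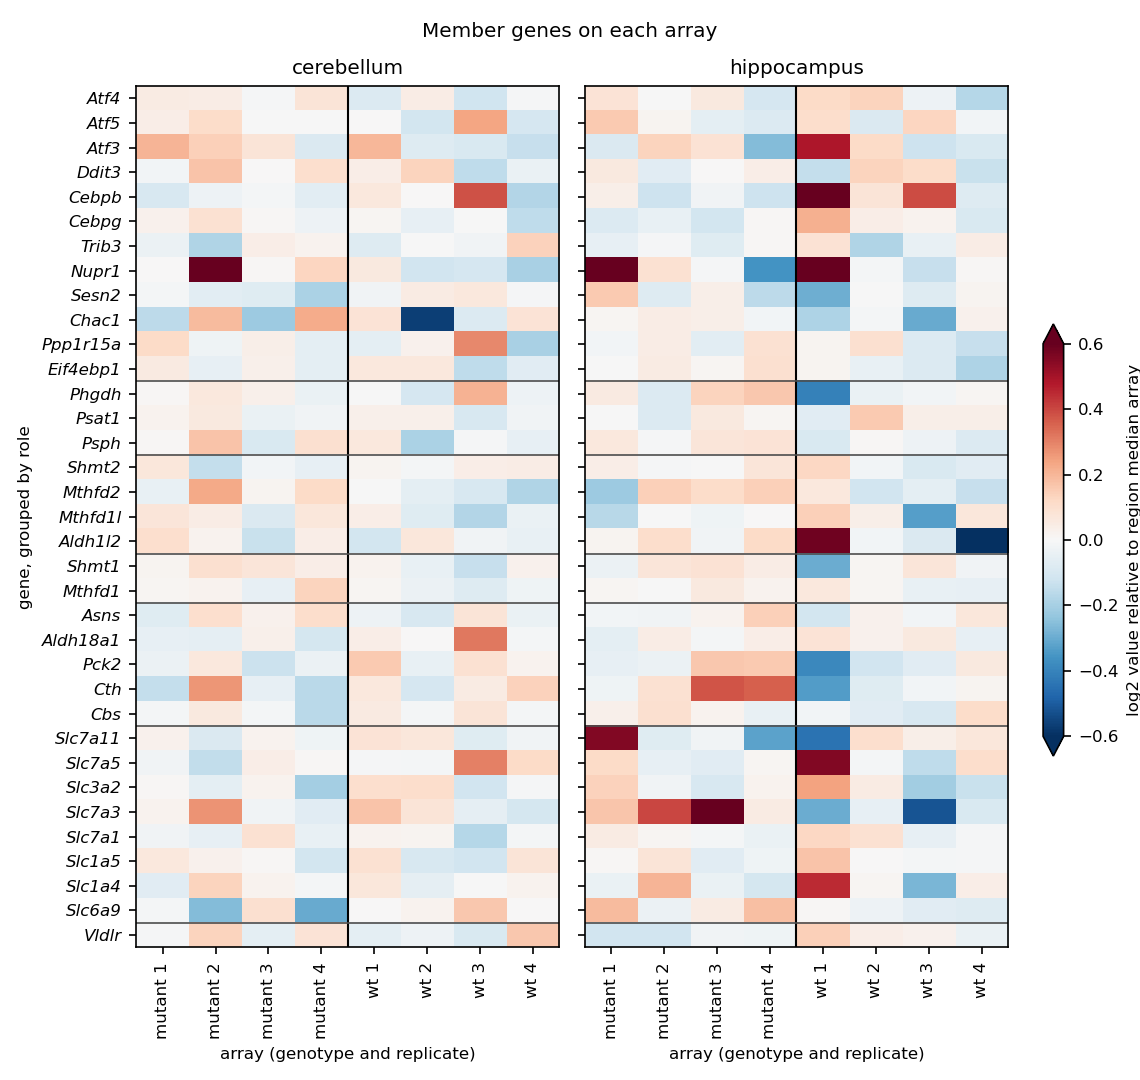
Log2 value of each of the 35 genes (rows, grouped by role) on each of the 16 arrays (columns), set against the median array of the same region; red is above and blue below that median, and the colours end at 0.6 log2 units. Wild-type hippocampus replicate 1 holds the highest value, 1.23 for Cebpb, and wild-type hippocampus replicate 4 the lowest, -0.71 for Aldh1l2, and mutant hippocampus columns of Slc7a3 are all on the red side.

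**Figure D2:**
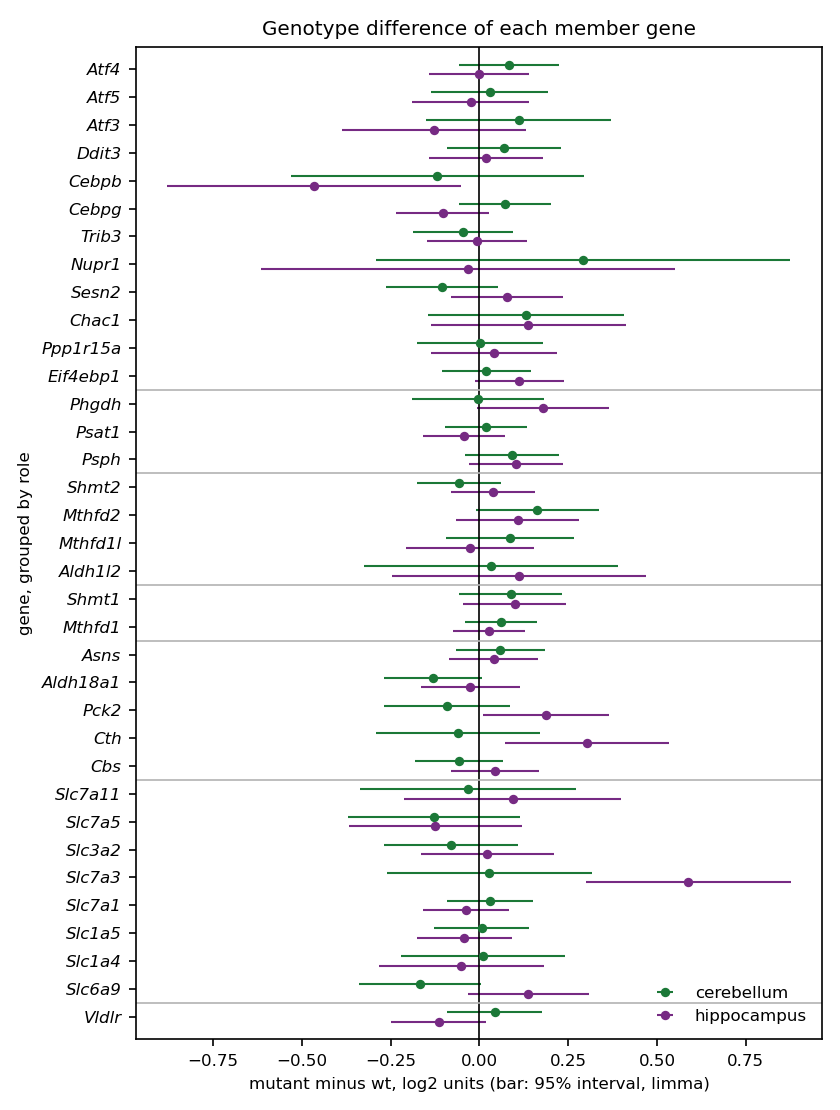
Mutant minus wild-type difference of each gene in log2 units, with its 95% limma interval, in cerebellum (green) and hippocampus (purple), with genes grouped by role. In the cerebellum every interval includes 0, and in the hippocampus those of Slc7a3, Cth and Pck2 lie above 0 and that of Cebpb lies below 0, none of them past the threshold after adjustment.

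The 12 transcription factors and regulators were centred at 0.05 in the cerebellum, with 9 above 0, and at -0.0036 in the hippocampus, with 5 above 0; 0 passed in either region. Atf4, the factor on which the programme rests, stood at 0.05, 0.04, -0.01 and 0.08 on the mutant cerebellum arrays and at -0.08, 0.04, -0.12 and -0.01 on the wild-type arrays. The groups overlapped, with wild-type replicate 2 among the mutants, and the difference was 0.08 (SE 0.07, limma adjusted p = 0.91). On the hippocampus arrays Atf4 stood at 0.08, -0.00092, 0.06 and -0.10 in mutants and at 0.12, 0.13, -0.03 and -0.17 in wild types. Each genotype had arrays on both sides of 0, and the difference was -0.0016 (SE 0.07, limma adjusted p = 0.996). Its 3 probe sets ranged from -0.0039 to 0.21 in the cerebellum and from -0.09 to 0.16 in the hippocampus. Since ATF4 is raised mainly through translation, its message is not a direct readout of the protein.

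Cebpb encodes a C/EBP partner of ATF4 and was the member with the largest negative difference. In the hippocampus it stood at 0.04, -0.12, -0.02 and -0.13 in mutants and at 1.23, 0.08, 0.39 and -0.08 in wild types. Mutant arrays lay close together, while wild-type replicate 1 lay far above every other array and wild-type replicate 4 lay among the mutants. The difference was -0.47 (SE 0.20, limma adjusted p = 0.58), and its probe sets gave -0.57 and -0.36. Without wild-type replicate 1, the array with raised granule neuron markers, it was -0.19. In the cerebellum Cebpb stood at -0.10, -0.03, -0.01 and -0.06 in mutants and at 0.07, 0.0012, 0.38 and -0.18 in wild types. Wild-type arrays lay both above and below all mutants there, and the difference was -0.12 (SE 0.20, limma adjusted p = 0.97), or -0.01 without wild-type replicate 3.

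Effectors of the response showed no common direction. Ddit3, the pro-apoptotic factor CHOP, differed by 0.07 in the cerebellum and 0.02 in the hippocampus, and the pseudokinase gene Trib3 by -0.05 and -0.01. The 2 Ddit3 probe sets disagreed in sign. They gave 0.19 (limma unadjusted p = 0.022) and -0.05 in the cerebellum, and 0.08 and -0.04 in the hippocampus. Atf3, an early stress factor, was at 0.11 and -0.13, and its hippocampus difference was 0.0017 without wild-type replicate 1. Atf5, a relative of ATF4 linked to the mitochondrial stress response, was at 0.03 and -0.02, and Cebpg, another C/EBP partner, at 0.07 and -0.10. Chac1, which breaks down glutathione, was at 0.13 and 0.14. Its cerebellum value was -0.02 without wild-type replicate 2. Sesn2, a leucine sensor that restrains mTORC1, was at -0.11 and 0.08, while Ppp1r15a, whose product reverses the phosphorylation of eIF2, was at 0.0014 and 0.04. The Sesn2 probe sets differed, with -0.18 and 0.19 for the first and -0.03 and -0.04 for the second. Eif4ebp1, an inhibitor of cap-dependent translation, was at 0.02 and 0.11 (SE 0.06 in each). Nupr1 reached 1.08 on mutant and 1.07 on wild-type hippocampus replicate 1, both named above for markers of other tissue, and stood between -0.36 and 0.09 on the other hippocampus arrays. Its hippocampus difference was -0.03 (SE 0.28), -0.32 without mutant replicate 1 and 0.25 without wild-type replicate 1.

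Serine is made from a glycolytic intermediate by Phgdh, Psat1 and Psph in that order, and all 3 genes stayed within 0.2 of no difference in both regions. Phgdh, the first enzyme, stood at 0.06, -0.08, 0.13 and 0.16 on mutant hippocampus arrays and at -0.40, -0.04, -0.01 and 0.01 on wild-type arrays. Mutants 1, 3 and 4 lay above all wild types, mutant 2 lay below wild types 2 to 4, and wild-type replicate 1 lay far below the rest. The difference was 0.18 (SE 0.09, limma adjusted p = 0.61), and its 4 probe sets ranged from 0.11 to 0.25. It was 0.08 without wild-type replicate 1. In the cerebellum Phgdh was at 0.01, 0.07, 0.03 and -0.04 in mutants and at -0.0037, -0.10, 0.21 and -0.03 in wild types. There the genotypes overlapped and the difference was -0.0028 (SE 0.09, limma adjusted p = 0.998).

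Psat1, the aminotransferase of the middle step, had 0.02, 0.06, -0.04 and -0.02 in mutant cerebellum against 0.03, 0.03, -0.10 and -0.02 in wild-type cerebellum. Hippocampus arrays gave -0.0040, -0.08, 0.06 and 0.01 in mutants against -0.07, 0.16, 0.03 and 0.03 in wild types. Both regions showed full overlap of the genotypes, with differences of 0.02 and -0.04 (SE 0.05 each, limma adjusted p = 0.985 and 0.853). Psph, the phosphatase of the last step, was measured at 0.01, 0.17, -0.09 and 0.10 in mutant cerebellum and at 0.06, -0.19, -0.01 and -0.05 in wild-type cerebellum. In the hippocampus its mutants were at 0.06, -0.0050, 0.07 and 0.08 and its wild types at -0.09, 0.0050, -0.03 and -0.08. Mutant replicate 2 and wild-type replicate 2 were the arrays that overlapped in the hippocampus, while the cerebellum groups were mixed. Psph differed by 0.09 in the cerebellum and 0.10 in the hippocampus (SE 0.06 each). Its cerebellum difference was 0.04 when wild-type replicate 2 was left out, and 0.0018 without mutant replicates 2 and 4. Those arrays were the lowest wild type and the highest mutants, so leaving them out had to lower the difference.

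In mitochondria, Shmt2 splits serine into glycine and a one-carbon unit, Mthfd2 and Mthfd1l carry that unit on to formate, and Aldh1l2 oxidises it to carbon dioxide. Mthfd2, an embryonic and tumour enzyme that respiratory chain defects induce in muscle, stood at -0.04, 0.23, 0.02 and 0.12 in mutant cerebellum and at -0.0017, -0.06, -0.10 and -0.18 in wild-type cerebellum. Mutants 2, 3 and 4 lay above every wild type and mutant 1 lay below wild-type replicate 1, for a difference of 0.16 (SE 0.08, limma adjusted p = 0.88). Mutant replicates 2 and 4, the highest, were the arrays with raised spike-ins, and without both the difference was 0.07. Leaving out the highest mutants lowers the difference whatever their spike-ins. The part of the spike-ins was not tested. Hippocampus values of Mthfd2 were -0.22, 0.14, 0.11 and 0.14 in mutants and 0.06, -0.12, -0.06 and -0.14 in wild types. Again mutants 2, 3 and 4 lay above every wild type, but mutant 1 lay below every wild type. The difference was 0.11 (SE 0.08, limma adjusted p = 0.75) and 0.20 without mutant replicate 1, the array with raised meningeal markers. Both probe sets of Mthfd2 lay above 0 in both regions. They gave 0.22 (limma unadjusted p = 0.0042) and 0.10 (limma unadjusted p = 0.47) in the cerebellum, and 0.14 and 0.07 in the hippocampus.

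Shmt2 differed by -0.06 in the cerebellum and 0.04 in the hippocampus, and Mthfd1l by 0.09 and -0.03. The 4 Shmt2 probe sets disagreed in the cerebellum. One gave -0.23 (limma unadjusted p = 0.0097) and the others -0.05, 0.01 and 0.03. Aldh1l2 differed by 0.03 and 0.11, and had wild-type hippocampus values as far apart as 0.58 on replicate 1 and -0.71 on replicate 4. Its hippocampus difference was 0.33 without wild-type replicate 1 and -0.10 without wild-type replicate 4. Of the cytosolic enzymes, Shmt1 runs the serine step outside mitochondria and Mthfd1 interconverts the folate-bound units. Shmt1 stood at 0.02, 0.10, 0.07 and 0.04 in mutant cerebellum and at 0.02, -0.04, -0.14 and 0.03 in wild-type cerebellum. Its hippocampus values were -0.04, 0.07, 0.09 and 0.04 in mutants and -0.30, 0.01, 0.07 and -0.02 in wild types. Mutant arrays lay inside a narrow range while 1 wild-type array in each region, replicate 3 in the cerebellum and replicate 1 in the hippocampus, lay well below it. The Shmt1 differences were 0.09 and 0.10 (SE 0.07 each, limma adjusted p = 0.91 and 0.72), and the hippocampus value was 0.02 without wild-type replicate 1. All 4 Shmt1 probe sets lay above 0 in both regions. Mthfd1 differed by 0.06 in the cerebellum and 0.03 in the hippocampus (SE 0.05 each).

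Among the enzymes of asparagine, proline, cysteine and phosphoenolpyruvate, 1 of 5 lay above 0 in the cerebellum and 4 of 5 in the hippocampus. Asns, asparagine synthetase and a standard readout of ATF4 activity, stood at -0.07, 0.10, 0.03 and 0.11 in mutant cerebellum and at -0.03, -0.09, 0.08 and -0.04 in wild-type cerebellum. In the hippocampus it was at -0.02, -0.02, 0.02 and 0.14 in mutants and at -0.11, 0.02, -0.02 and 0.07 in wild types. Overlap was wide in both regions, and no array of Asns lay more than 0.14 from 0. The differences were 0.06 and 0.04 (SE 0.06 each, limma adjusted p = 0.94 and 0.88), with 95% intervals from -0.07 to 0.18 and from -0.09 to 0.17. Without mutant replicates 2 and 4 the cerebellum difference was -0.0041. They were the highest mutants, so leaving them out had to lower the difference.

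Cth, cystathionine gamma-lyase, makes cysteine from cystathionine. Its hippocampus values were -0.03, 0.09, 0.38 and 0.36 in mutants and -0.33, -0.07, -0.02 and 0.02 in wild types. Mutants 2, 3 and 4 lay above every wild type, and mutant 1 lay among the wild types. The difference was 0.30 (SE 0.11, limma adjusted p = 0.51) and ranged from 0.23 without wild-type replicate 1 to 0.38 without mutant replicate 1. In the cerebellum Cth was at -0.14, 0.27, -0.05 and -0.16 in mutants and at 0.07, -0.10, 0.05 and 0.14 in wild types. Mutant replicate 2 was the highest array and the other mutants were among the lowest, with a difference of -0.06 (SE 0.11, limma adjusted p = 0.97), or -0.14 without mutant replicates 2 and 4. Cbs, the enzyme before Cth in the pathway, differed by -0.06 in the cerebellum and 0.04 in the hippocampus.

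Pck2, the mitochondrial phosphoenolpyruvate carboxykinase, stood at -0.05, -0.03, 0.16 and 0.16 in mutant hippocampus and at -0.39, -0.12, -0.07 and 0.06 in wild-type hippocampus. Mutants 3 and 4 lay above every wild type, mutants 1 and 2 lay below wild-type replicate 4, and wild-type replicate 1 lay lowest. The difference was 0.19 (SE 0.08, limma adjusted p = 0.60), or 0.10 without wild-type replicate 1, and its probe sets gave 0.11 and 0.26. In the cerebellum Pck2 was at -0.04, 0.06, -0.13 and -0.04 in mutants and at 0.16, -0.04, 0.09 and 0.02 in wild types. The genotypes overlapped, and the difference was -0.09 (SE 0.08, limma adjusted p = 0.93). Aldh18a1, which starts proline synthesis from glutamate, differed by -0.13 in the cerebellum (SE 0.07, limma adjusted p = 0.88), or -0.05 without wild-type replicate 3, whose value was 0.32. Its hippocampus difference was -0.03. In the cerebellum its 5 probe sets ran from -0.29 (limma unadjusted p = 0.013) to -0.01.

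Of the 8 amino acid transporter genes, 4 lay above 0 in each region. Slc7a3, a carrier of arginine and other cationic amino acids, had the largest hippocampus difference of all members. Its hippocampus values were 0.17, 0.40, 0.78 and 0.05 in mutants and -0.30, -0.05, -0.52 and -0.09 in wild types. All 4 mutants lay above all 4 wild types, without overlap. Since 0 is the median of the 8 arrays, it then falls between the groups and adds nothing further. Mutant replicate 4 at 0.05 and wild-type replicate 2 at -0.05 lay close together. Mutants averaged 0.35 ± 0.32 and wild types -0.24 ± 0.22 (SD, n = 4 each), a difference of 0.59 (SE 0.14, 95% interval 0.30 to 0.88, limma adjusted p = 0.26). It rested on 1 probe set. The SE here draws on both regions, and with the hippocampus fitted alone the smallest limma adjusted p of any member was 0.64. Among the cell markers, the 15 of inhibitory interneurons averaged 0.05 to 0.10 on mutant hippocampus arrays against -0.22 to -0.01 on wild-type arrays, also without overlap, and the blood cell markers separated in the opposite direction. The 12 ependymal markers averaged 0.27 to 0.55 on mutants 2 to 4 and -0.05 on mutant 1, against -0.31 to -0.01 in wild types. The part of these cell types in the Slc7a3 difference was not tested. Across fits with 1 array left out, the difference ran from 0.44 to 0.69. Leaving out the 3 hippocampus arrays named for their markers gave 0.81 (limma adjusted p = 0.12). That fit dropped the lowest mutants, 1 and 4, and kept only mutants 2 and 3, the highest at 0.40 and 0.78. Its larger difference therefore follows in part from which mutants remained. Over all settings run, the adjusted p ranged from 0.12 to 0.64.

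In the cerebellum Slc7a3 was at 0.02, 0.27, -0.02 and -0.07 in mutants and at 0.17, 0.08, -0.05 and -0.10 in wild types. Those groups overlapped fully, and the difference was 0.03 (SE 0.14, limma adjusted p = 0.99). Slc7a1, the widely expressed carrier of the same amino acids, differed by 0.03 in the cerebellum and -0.04 in the hippocampus. Slc6a9, the glycine transporter GlyT1, was at -0.01, -0.26, 0.09 and -0.30 in mutant cerebellum and at 0.0036, 0.02, 0.16 and 0.0045 in wild-type cerebellum. Mutants 2 and 4, the arrays with raised spike-ins, lay far below the rest, and mutant 3 lay among the wild types. In the hippocampus Slc6a9 was at 0.19, -0.04, 0.05 and 0.18 in mutants and at 0.01, -0.03, -0.07 and -0.08 in wild types. There mutants 1, 3 and 4 lay above every wild type. The differences were -0.17 in the cerebellum and 0.14 in the hippocampus (SE 0.08 each, limma adjusted p = 0.88 and 0.66), and the cerebellum value was -0.0058 without mutant replicates 2 and 4. Those mutants were the lowest in the cerebellum, so leaving them out had to raise that value. The hippocampus value was 0.06 without the 3 arrays named for their markers. That fit dropped the highest mutants, 1 and 4, and the highest wild type.

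Slc7a11, the cystine carrier with 2 matches of the core in its promoter, differed by -0.03 in the cerebellum and 0.09 in the hippocampus. On hippocampus replicate 1 it reached 0.56 in the mutant and -0.44 in the wild type. Without that mutant array the difference was -0.08, and without that wild-type array it was -0.03. Slc7a5 and Slc3a2 encode the subunits of a leucine exchanger. Slc7a5 differed by -0.13 and -0.12 in cerebellum and hippocampus and Slc3a2 by -0.08 and 0.02, and without wild-type hippocampus replicate 1 these hippocampus values were 0.02 and 0.11. The neutral amino acid carriers Slc1a5 and Slc1a4 differed by 0.01 each in the cerebellum and by -0.04 and -0.05 in the hippocampus. Slc1a4 stood at 0.45 on wild-type hippocampus replicate 1, and its difference was 0.08 without it.

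Vldlr, a receptor of lipoproteins and of reelin that ATF4 is known to induce, stood at -0.12, -0.12, -0.02 and -0.03 in mutant hippocampus and at 0.15, 0.04, 0.03 and -0.04 in wild-type hippocampus. Wild types 1 to 3 lay above every mutant, and wild type 4 lay among the mutants. The difference was -0.11 (SE 0.06, limma adjusted p = 0.64), and its 6 probe sets all lay below 0. In the cerebellum it was at -0.01, 0.13, -0.06 and 0.08 in mutants and at -0.06, -0.03, -0.09 and 0.16 in wild types. Its cerebellum groups overlapped, with a difference of 0.04 (SE 0.06, limma adjusted p = 0.96).

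**Figure D3:**
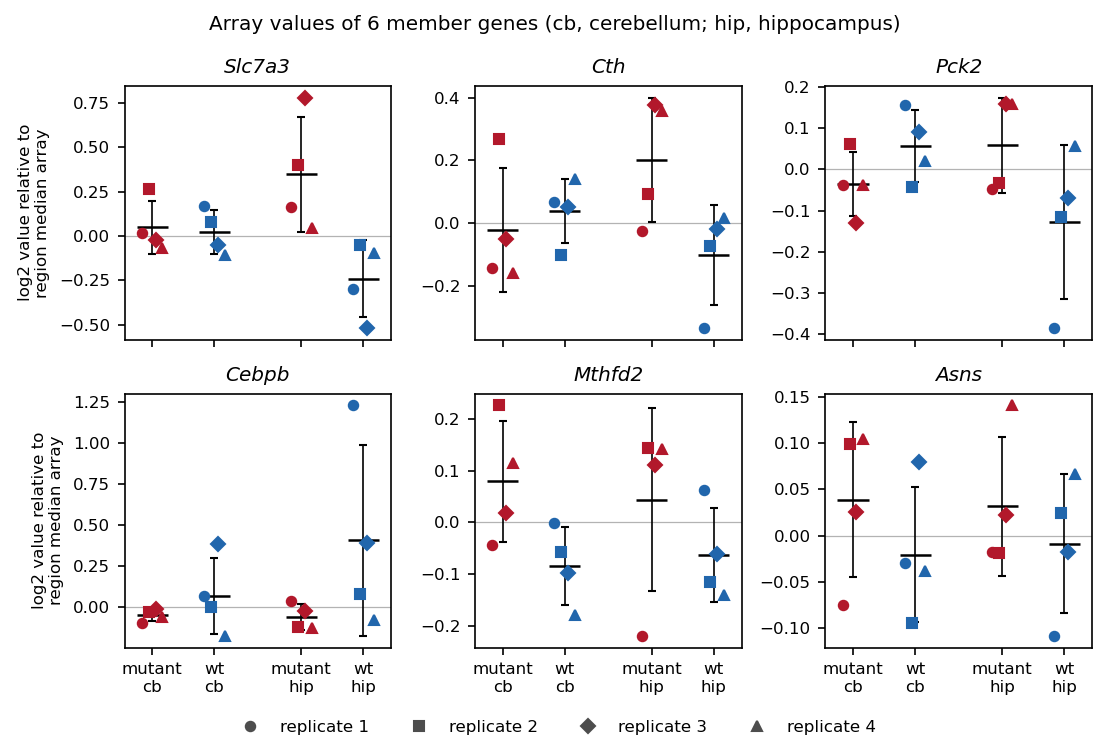
Log2 values of Slc7a3, Cth, Pck2, Cebpb, Mthfd2 and Asns on each array (log2 scale, 0 is the median array of the region) for mutant (red) and wild type (blue) in cerebellum (cb) and hippocampus (hip); shapes mark the replicate number, long bars the mean and error bars the SD of 4 arrays. Slc7a3 in the hippocampus is the panel whose genotypes do not overlap, and the Cebpb panel shows wild-type hippocampus replicate 1 at 1.23.

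The genotype effect was also compared between regions, as hippocampus minus cerebellum. This fit took all arrays as independent, although both regions of a replicate number may come from the same animal. The SE and p-values of the comparison depend on that. limma called 0 members, as it called 0 of all genes (0%). At an unadjusted p under 0.05 there were 4 members, against 5.35% of all genes. These were Slc7a3 at 0.56 (SE 0.19), Cth at 0.36 (SE 0.15), Slc6a9 at 0.31 (SE 0.11) and Pck2 at 0.28 (SE 0.12). Their limma adjusted p was 0.87. For all 4 the genotype difference was the higher one in the hippocampus. The count was 2 without wild-type hippocampus replicate 1 or without mutant hippocampus replicate 3, 1 without all 3 hippocampus arrays named for their markers, and 3 without mutant cerebellum replicates 2 and 4. Without those cerebellum arrays the Slc6a9 value was 0.14. Averaged over both regions, limma again called 0 members and 0 of all genes (0%). There were 2 members at an unadjusted p under 0.05, against 8.51% of all genes, namely Slc7a3 at 0.31 (SE 0.09, adjusted p = 0.53) and Psph at 0.10 (SE 0.04, adjusted p = 0.57). The average count was 5 without mutant replicate 1 or without wild-type replicate 4, and 1 without mutant replicate 2 or without mutant replicate 4. Shares of all genes with arrays left out are not given here, so these counts have no background beside them.

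Differences were also set out by the promoter core. The 9 measured members with the core had a median difference of 0.04 in the cerebellum, with 6 above 0, and the 20 members with a window but no core had 0.02, with 12 above 0. In the hippocampus the medians were -0.0056, with 4 above 0, and 0.02, with 12 above 0. Cth and Slc7a3, the members with the largest positive hippocampus differences, had no window. Different probe sets of a gene often disagreed in sign. Of the 24 members with several probe sets, all lay on the same side of 0 for 11 in the cerebellum and 17 in the hippocampus.

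A few arrays stood farthest from 0 for many of these genes. Wild-type hippocampus replicate 1 was the array farthest from 0 for 18 of the 35 members, where it was farthest for 28.0% of all genes. On that array 10 members lay more than 0.3 from 0, against 11.5% of all genes. Wild-type cerebellum replicate 3 was farthest for 13 of the 35, where it was farthest for 25.5% of all genes. Leaving out the hippocampus array moved Cebpb to -0.19, moved Nupr1 to 0.25 and Aldh1l2 to 0.33 and left Slc7a3 at 0.57 (limma adjusted p = 0.38), with 26 members above 0 and a median of 0.03. The share of all genes above 0 in that fit is not given here. Within replicates 1 and 2, which were 24 months or older, the median hippocampus difference was -0.01, and within replicates 3 and 4, which were 23 months or younger, it was 0.04. Slc7a3 differed by 0.46 within replicates 1 and 2 and by 0.72 within replicates 3 and 4.

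**Figure D4:**
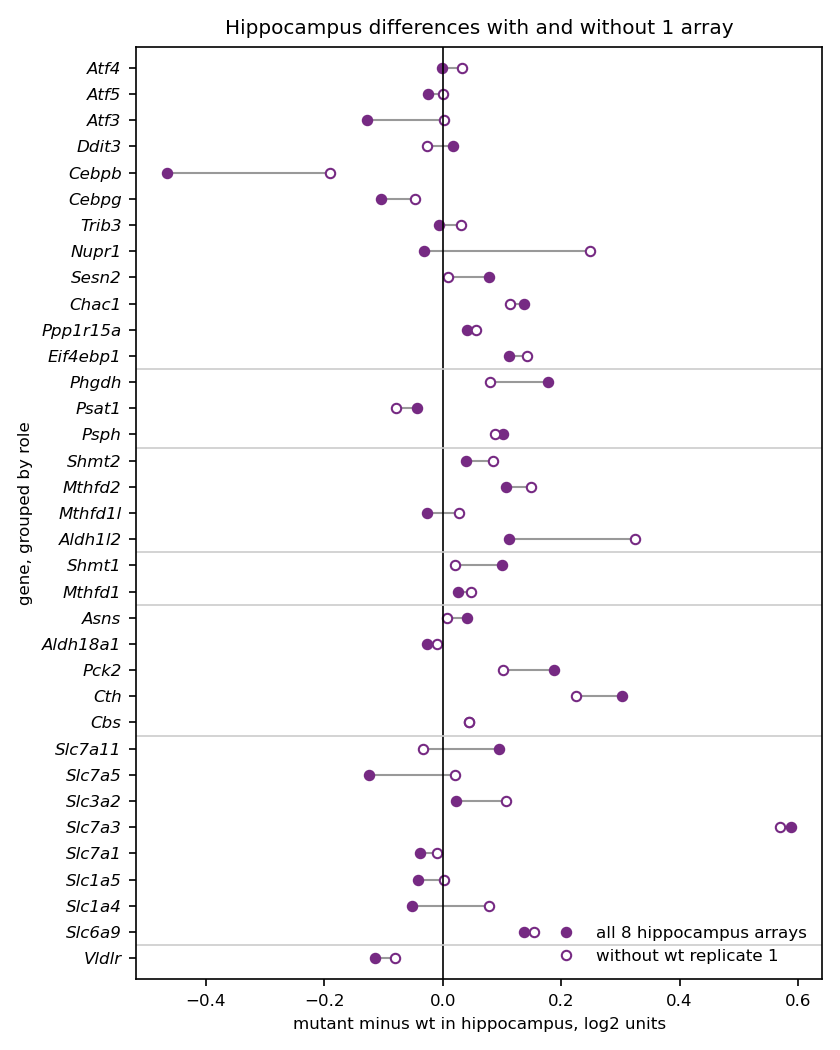
Mutant minus wild-type difference of each gene in the hippocampus in log2 units, with all 8 arrays (filled) and without wild-type replicate 1 (open), with a line joining both values of a gene. Cebpb moves to -0.19, Nupr1 to 0.25 and Aldh1l2 to 0.33 when that array is left out, while Slc7a3 stays at 0.57.

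Pairs of members that work together were compared across the 8 arrays of each region, in 12 relations adjusted together. Shmt2 and Mthfd2, successive enzymes of the mitochondrial pathway, ran in opposite directions in the cerebellum, with Pearson r = -0.89 (exact permutation p = 0.0034, adjusted p = 0.041) and Spearman rho = -0.81 (exact permutation p = 0.022, adjusted p = 0.26). Without the 2 arrays farthest from the median of Shmt2, r was -0.89 (exact permutation adjusted p = 0.23). With the genotype means removed it was -0.89 as well (exact permutation adjusted p = 0.019). Arrays named above for their spike-ins lay near the ends of this relation. Mutant replicate 2 had -0.14 for Shmt2 and 0.23 for Mthfd2, and wild-type replicate 4 had 0.05 and -0.18. The 2 arrays left out were mutant replicates 1 and 2, so mutant replicate 4 and wild-type replicate 4 were kept. The part of these arrays was not tested. Shmt2 here is a mean of 4 probe sets that disagreed in sign. In the hippocampus the same pair had r = 0.36 (exact permutation adjusted p = 0.55). Slc7a5 and Slc3a2, the subunits of 1 transporter, had r = 0.79 (exact permutation p = 0.013, adjusted p = 0.077) and rho = 0.74 (exact permutation p = 0.046, adjusted p = 0.28) in the hippocampus. That relation rested on the 2 farthest arrays, since r was 0.26 without them (exact permutation adjusted p = 0.89), while with the genotype means removed r was 0.85 (exact permutation adjusted p = 0.039). In the cerebellum r was -0.25 (exact permutation adjusted p = 0.60). Atf4 and its target Asns had r = -0.06 in the cerebellum and -0.65 in the hippocampus (exact permutation adjusted p = 0.89 and 0.24). The other pairs, Phgdh with Psat1, Atf4 with Ddit3 and Psat1 with Asns, had r between -0.57 and 0.70, and none passed.

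Most genes around this programme also lay close to 0. Of 92 measured genes of wider lists, covering the eIF2 kinases and eIF2 and eIF2B subunits, cytosolic aminoacyl-tRNA synthetases, other folate and methionine cycle genes, glutathione synthesis, other amino acid transporters and endoplasmic reticulum stress, limma called 0 in either region. In the cerebellum 49 lay above 0 with a median of 0.01, and 1 was higher and 0 lower at an unadjusted p under 0.05, against 3.15% and 2.24% of all genes. That gene was Mtfmt, which formylates the mitochondrial initiator tRNA, at 0.18 (SE 0.08, limma adjusted p = 0.88). In the hippocampus 53 lay above 0 with a median of 0.02, and 89 of the 92 lay within 0.2. Other amino acid transporters ran from -0.40 to 0.30 there, and the gene at -0.40 did not reach a limma unadjusted p under 0.05. At that p 4 of the 92 were higher and 1 lower, against 5.28% and 2.75% of all genes. The lower gene was Atf6, a stress sensor of the endoplasmic reticulum that is cleaved into a transcription factor, at -0.08, -0.09, -0.12 and 0.01 in mutants and 0.21, -0.02, 0.32 and 0.10 in wild types. Mutant replicate 4 and wild-type replicate 2 were the arrays that overlapped, and the difference was -0.22 (SE 0.07, limma adjusted p = 0.49). The cerebellum difference of Atf6 was -0.15 (SE 0.07, limma adjusted p = 0.88). The 4 higher genes were Eif2b5, a subunit of the exchange factor for eIF2, at 0.14, the transporter gene Slc43a1 at 0.30, the purine synthesis gene Atic at 0.13 and the mitochondrial serine carrier gene Sfxn1 at 0.15, with adjusted p of 0.51 to 0.60. Those 4 and Mtfmt were chosen for mention after their values were seen. The 13 tRNA synthetase genes, many of them known ATF4 targets, had medians of 0.01 in the cerebellum and -0.0043 in the hippocampus, and the 15 endoplasmic reticulum stress genes -0.02 and 0.01.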

How the data were processed

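RNA of 16 tissue samples was measured on Affymetrix arrays. The authors deposited 1 table of log values per probe set, taken here as log2; the base is not stated, and if it were natural, all differences would be larger by 1 common factor. Per the submitters' processing notes GCOS 4.0 was used, while the sources used here do not give the probe-level summary, normalization or centring. The median over the 8 arrays of a region was 0 for 100% of analysed probe sets, so no filter on level, no pseudocount and no comparison of regions in level was possible. Of 45101 probe sets, 64 controls and 133 with an empty value were left out. Groups came from sample titles. For hippocampus samples a free-text entry says cerebellum, and the title, source and tissue entries were followed instead. Probe sets with 1 gene symbol were averaged per gene.

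One limma model (version 3.58.1, R 4.3.3) held all 16 arrays, with 1 mean for each group, 12 residual degrees of freedom and two-sided tests adjusted by Benjamini-Hochberg over 18168 genes. For the average over regions, both regions of a genotype and replicate number were first averaged, which left 8 values. Correlations used exact permutation of 8 arrays in Python 3.11.15 with scipy 1.17.1. The fits were tested on simulated data. The labels call the replicates biological and say no more on their source, and p-values here reflect only how far these samples spread, while the number of arrays limits precision. The median SE over all genes was 0.0741 in a region. Values per array are given for members at an unadjusted p under 0.05 in any comparison, for Atf4, Asns, Phgdh, Psat1 and Mthfd2 and for the smallest p of each other role. From the wider lists, genes at an unadjusted p under 0.05 in a region are named, where the planned limit was 0.01. The members and lists were chosen with earlier results of these data known. Alternatives covered normalization, the gene value, robust variance, terms for replicate number, replicate set and age, each region alone, each probe set alone and each array left out.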

Additional observations from a re-analysis of the deposited data

Results flagged for a closer look

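In 8 of 140 groups of 4 arrays, 1 array lay farther from the other arrays of its group than Dixon's criterion allows; chance alone gives about 1 in 20 groups. Wild-type hippocampus replicate 1 was that array for 4 genes. It stood at 1.07 for Nupr1 against -0.14 to 0.01 on the other wild-type arrays, at -0.40 for Phgdh, at -0.44 for Slc7a11 and at 0.17 for Slc1a5. Mutant hippocampus replicate 1 stood at -0.22 for Mthfd2, against 0.11 to 0.14 on the other mutants, and at -0.17 for Mthfd1l. Wild-type cerebellum replicate 3 stood at 0.32 for Aldh18a1 and at 0.16 for Slc6a9. Wild-type hippocampus replicate 1 was the array with raised markers of cerebellar granule neurons and mutant hippocampus replicate 1 the array with raised meningeal markers, and their part in these values was not tested.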

How the results depend on the processing

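Across all alternatives run, limma called 0 members in any comparison. No filter on dim probe sets was possible, so signal over background could not be weighed. The alternatives that leave out the doubted arrays, those with raised markers in the hippocampus or raised spike-ins in the cerebellum, were chosen after seeing the data. Where a value below turned sign or a count moved, the cause was not tested. Same-numbered mutant and wild-type arrays correlated between -0.19 and 0.05 in the cerebellum and between -0.07 and 0.23 in the hippocampus. Differently numbered arrays correlated between -0.23 and 0.24 in the cerebellum and between -0.20 and 0.19 in the hippocampus. These values cannot decide whether the numbers pair the samples, and the labels do not say. With a replicate block, members at an unadjusted p under 0.05 numbered 1 in the cerebellum and 5 in the average. Other counts of members at that p in the cerebellum were 2 with only probe sets without a suffix, 1 with age as a term and 2 with the region fitted alone, and 0 to 3 with 1 array left out. In the hippocampus the count was 2 with the region fitted alone and 2 to 6 with 1 array left out. The difference between regions gave 1 without the doubted hippocampus arrays, 3 without the doubted cerebellum arrays and 2 to 5 with 1 array left out. The average gave 1 with quantile normalization, 1 with median and spread equalised, 5 with probe sets without a suffix and 1 to 5 with 1 replicate left out. Shares of all genes at that p under these alternatives are not given here, so the member counts have no background beside them. Over all genes, limma called 2 in the hippocampus with quantile normalization, 2 with spread equalised, 2 with probe sets without a suffix, 2 with robust variance, 1 without the doubted hippocampus arrays and 0 to 7 with 1 array left out, the 7 when wild-type replicate 2 was dropped, against 3 for wild-type replicate 4, 2 for mutant replicate 4 and 1 for mutant replicate 1. It called 1 in the difference without the doubted hippocampus arrays, 0 without the doubted cerebellum arrays, 0 to 1 with 1 array left out, and 1 in the average with each probe set on its own. The median member difference in the hippocampus was 0.060 with probe sets without a suffix and -0.012 within replicates 1 and 2.

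Cerebellum differences turned sign without mutant replicates 2 and 4 for Ddit3 (-0.0012), Chac1 (-0.066), Shmt2 (0.0037), Asns (-0.0041), Slc7a11 (0.0069), Slc7a3 (-0.023), Slc1a4 (-0.032) and Vldlr (-0.026). With age as a term Ppp1r15a was -0.0039. Quantile normalization gave Phgdh 0.015 and Slc1a5 -0.0029, and equalised spread gave Phgdh 0.011, Slc1a5 -0.0066 and Slc1a4 -0.0040. The median over probe sets gave Slc1a4 -0.016, and probe sets without a suffix gave Mthfd1 -0.0020, Asns -0.0027 and Slc1a4 -0.0014.

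Hippocampus differences turned sign with quantile normalization for Atf4 (0.0064), Ddit3 (-0.0088) and Nupr1 (0.059), and with equalised spread for Atf4 (0.0022), Ddit3 (-0.0013) and Nupr1 (0.024). Probe sets without a suffix gave Atf4 0.041 and Aldh18a1 0.037, and the median over probe sets gave Aldh18a1 0.0055. Age as a term gave Atf4 0.018, Nupr1 0.12, Mthfd1l 0.012 and Slc1a4 0.0050. Without wild-type replicate 1 and mutant replicates 1 and 4 the values were Atf4 0.051, Atf3 0.14, Ddit3 -0.068, Trib3 0.021, Nupr1 0.090, Sesn2 -0.0013, Mthfd1l 0.062, Asns -0.023, Aldh18a1 0.0038, Slc7a11 -0.12, Slc1a5 0.0085 and Slc1a4 0.16.

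With 1 array left out, these cerebellum differences crossed 0: Atf5 (-0.010 to 0.11), Trib3 (-0.075 to 0.0014), Chac1 (-0.016 to 0.21), Ppp1r15a (-0.068 to 0.092), Eif4ebp1 (-0.024 to 0.049), Phgdh (-0.042 to 0.060), Psat1 (-0.0083 to 0.034), Slc7a3 (-0.045 to 0.076), Slc7a1 (-0.016 to 0.049), Slc1a5 (-0.028 to 0.041) and Slc1a4 (-0.028 to 0.039). In the hippocampus these were Atf4 (-0.063 to 0.039), Atf5 (-0.074 to 0.0086), Atf3 (-0.20 to 0.0017), Ddit3 (-0.026 to 0.065), Trib3 (-0.058 to 0.031), Nupr1 (-0.32 to 0.25), Mthfd1l (-0.13 to 0.028), Aldh1l2 (-0.10 to 0.33), Slc7a11 (-0.079 to 0.21), Slc7a5 (-0.22 to 0.020), Slc3a2 (-0.043 to 0.11), Slc1a5 (-0.069 to 0.0016) and Slc1a4 (-0.16 to 0.079).

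Without the 2 farthest arrays r was 0.55 for Phgdh and Psat1 and 0.28 for Atf4 and Asns in the cerebellum, -0.070 for Atf4 and Ddit3 in the hippocampus and -0.893 for Shmt2 and Mthfd2 in the cerebellum. With genotype means removed r was 0.853 for Slc7a5 and Slc3a2 in the hippocampus, which passed the threshold (exact permutation adjusted p = 0.039) where the value over all arrays had not.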
